A study of Mus musculus with 24 samples.

Results

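Unstimulated thioglycollate-elicited peritoneal macrophages (EPM) were compared with unstimulated bone marrow-derived macrophages (BMDM), both from C57BL/6 mice. The comparison took every control channel of the macrophage arrays, that is 8 of the 24 channels of the series: 4 of EPM (2 untreated and 2 given the solvent DMSO for 12 h) and 4 of BMDM (2 given DMSO for 1 h and 2 given DMSO for 12 h). None of these channels had received Kdo2 lipid A (KLA), the TLR4 agonist of the study. EPM had been washed from the peritoneal cavity on day 3 after thioglycollate injection and kept by adherence in DMEM with serum, whereas BMDM had been grown from marrow in medium conditioned by L cells and then replated in RPMI with M-CSF. The sources used here give no sex, age or pooling of the mice.

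Each array carried 2 biological replicates of the same condition, one in Cy5 and the other in Cy3, and no common reference. Each cell type occupied a single slide, so cell type, culture medium, growth factor and slide cannot be told apart. The early controls differed also in solvent, since EPM were untreated there and BMDM had DMSO for 1 h, while the 12 h controls matched in solvent and time. The spread between replicates is that of 2 channels of the same array and leaves out any difference between arrays. Between 59.5% and 65% of the probes were well above background in each of the 8 channels, and no spot was saturated.

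Macrophages obtained by these routes are both widely used as primary cells, but they come to hand in different states. Elicited cells are largely monocyte-derived and have matured within the serous cavity during sterile inflammation, where cavity signals such as retinoic acid act on resident cells. Marrow-derived cells are driven by M-CSF, which promotes survival and division of the lineage, and constitutive type I interferon signalling is a known feature of macrophage cultures. Bulk RNA cannot tell fewer cells of a type from less RNA per cell.

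Genes were tested where both channels of 1 or more of the 4 control conditions were well above background, which left 16118. Of these, 9961 (61.8%) differed in the early controls and 9810 (60.9%) in the 12 h controls (limma, Benjamini-Hochberg adjusted p under 0.05). The direction was shared at both times by 3746 genes higher in EPM (23.3%) and by 3890 genes higher in BMDM (24.1%). With array intensities brought to a common scale by loess within arrays alone, 38.2% of the genes with a shared direction were higher in EPM, against 49.1% in the reported setting, so the balance between the directions depends on the scaling. Since so many genes passed this threshold, a further condition of a difference over 2-fold at each time was used. It left 818 genes higher in EPM (5.08%) and 744 higher in BMDM (4.62%), of which 284 and 147 were over 4-fold. The counts of each list below are to be read against these shares of all genes. All 4 EPM channels lay above all 4 BMDM channels in 26.2% of the genes tested, and the reverse held in 27.4%. The median difference over all genes was -0.01 (log2) early and -0.03 at 12 h. Differences are given throughout as EPM minus BMDM on the log2 scale of normalized intensity.

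The cells carried the macrophage markers their labels call for. All 24 core genes of the lineage were well above background in every one of the 8 channels, and their summed intensity ranged from 923987 to 1034975 in EPM and from 919572 to 1060112 in BMDM, ranges that overlap. Within this list 6 genes were higher in EPM and 10 in BMDM at both times. Csf1r, the M-CSF receptor, stood at 13.67 and 13.55 in untreated EPM, 13.60 and 13.61 in EPM at 12 h, 15.06 and 15.09 in BMDM at 1 h, and 15.20 and 15.22 in BMDM at 12 h. The groups did not overlap, and the difference was -1.47 ± 0.06 early and -1.61 ± 0.06 at 12 h (n = 2 per group). The SE, here and below, is that of the limma fit, with the spread shared over all conditions. Emr1, a surface receptor that marks mouse macrophages, was likewise lower in EPM by 2.82-fold early and 4.11-fold at 12 h, and another of its probes gave a larger difference, -3.12 and -3.44. Aif1, an actin-bundling protein of macrophages, was lower in EPM by 18.2-fold and 27.5-fold, and Tlr2, the receptor for bacterial lipopeptides, by 3.91-fold and 8.23-fold. In the opposite direction Cd68, a lysosomal glycoprotein, was higher in EPM by 2.29-fold and 2.44-fold, and Fcgr2b, the inhibitory Fc receptor, by 4.7-fold and 3.69-fold. Tlr4, the KLA receptor, passed the test at neither time, with differences of -0.03 and 0.06.

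F7, which encodes coagulation factor VII, had the largest difference among genes higher in EPM at both times. It stood at 13.87 and 13.96 in untreated EPM and at 13.86 and 13.91 in EPM at 12 h, against 7.55 and 7.46 in BMDM at 1 h and 7.30 and 7.24 in BMDM at 12 h. EPM channels were thus 85-fold higher early and 97.9-fold higher at 12 h (adjusted p = 4.33e-22 and 2.52e-22). The probe lies at chr8:13035264-13035323 in the mm8 build named by the files. Its neighbour F10, coagulation factor X, probed at chr8:13055751-13055810, differed by 4.85 and 5.06. Next came Ctsk, the collagen-degrading cathepsin K, at 5.33 and 5.57, and Bex1, which was not well above background in any BMDM channel and was at least 35.7-fold higher in EPM early and at least 43.5-fold at 12 h. Mamdc2 (4.82 and 5.31), Serpinh1, a collagen chaperone (4.68 and 4.94), Cdkn1c, the cyclin-dependent kinase inhibitor p57 (4.63 and 5.11), Slamf8 (4.59 and 4.67) and Cryab, a small heat shock protein (4.58 and 4.60), completed the leading genes with Itgax. Itgax encodes the integrin CD11c and differed by 4.73 and 4.69 on the probe used, but by 0.59 and 1.12 on its second probe. The second probe of Cryab gave 1.81 and 2.11.

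**Figure D1:**
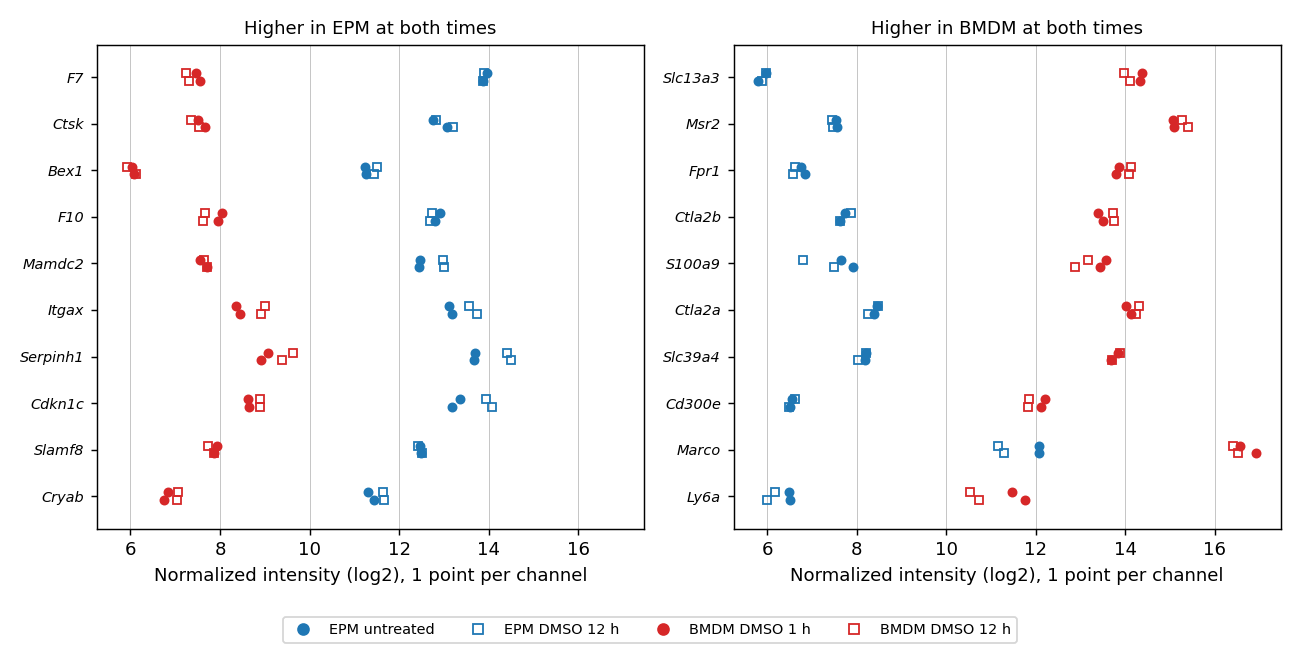
Normalized intensity (log2, x axis) in each of the 8 control channels for the 10 genes with the largest smaller-of-both-times difference in each direction (y axis). Circles are the early and open squares the 12 h controls, blue EPM and red BMDM. In every gene the 4 channels of one cell type lie apart from the 4 of the other, from at least 23.1-fold apart for Ly6a at 12 h to at least 330-fold for Slc13a3 early.

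Slc13a3, a sodium-coupled dicarboxylate transporter, had the largest difference of the genes higher in BMDM. It stood at 14.33, 14.36, 14.10 and 13.97 in the 4 BMDM channels and between 5.80 and 5.96 in the 4 EPM channels, none of which was well above background, so that BMDM were at least 330-fold higher early and at least 252-fold higher at 12 h. Msr2 stood at 15.09, 15.06, 15.39 and 15.26 in BMDM and between 7.45 and 7.56 in EPM, differences of -7.53 and -7.86. Fpr1, the formyl peptide receptor of phagocytes, differed by -7.03 and -7.51. S100a9, a calcium-binding protein of neutrophils and monocytes, differed by -5.71 and -5.88 with a wider spread, as its EPM channels ranged from 6.79 to 7.93. Ctla2a and Ctla2b, a pair of similar cathepsin inhibitor genes that a probe may not separate, differed by -5.65 and -5.89 and by -5.76 and -5.98. Slc39a4, a zinc importer, differed by -5.57 and -5.67, Cd300e, an activating receptor of monocytes, by -5.63 and -5.28, Marco, a scavenger receptor for bacteria, by -4.67 and -5.23, and Ly6a, which encodes Sca-1, by -5.12 early. At 12 h Ly6a was not well above background in EPM and was at least 23.1-fold higher in BMDM.

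Markers of mesothelium and fibroblasts were mostly higher in EPM. Of 14 tested, 13 were higher in EPM at both times and 12 of them by over 2-fold, with medians of 3.27 early and 3.52 at 12 h. The summed intensity of the list ranged from 62947 to 108657 in EPM and from 5784 to 7483 in BMDM, and 7 of the 14 were not well above background in any BMDM channel. Krt8, a keratin of simple epithelia, stood at 10.26, 10.12, 10.62 and 10.70 in EPM and between 6.04 and 6.16 in BMDM, at least 16.7-fold higher early and at least 24.1-fold at 12 h. Wt1, a transcription factor of mesothelium, was at least 8.36-fold and at least 10.5-fold higher, and Col3a1, a fibrillar collagen of fibroblasts, 18-fold and 19.8-fold. Cdh11, a cadherin of stromal cells, passed the test at neither time (-0.06 and 0.04). Among the 34 collagen genes tested, a family chosen after the data were seen, 20 were higher in EPM and 1 in BMDM. Whether non-macrophage cells in the peritoneal preparation contributed to the differences of other genes, each group of EPM genes below included, was not tested.

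**Figure D2:**
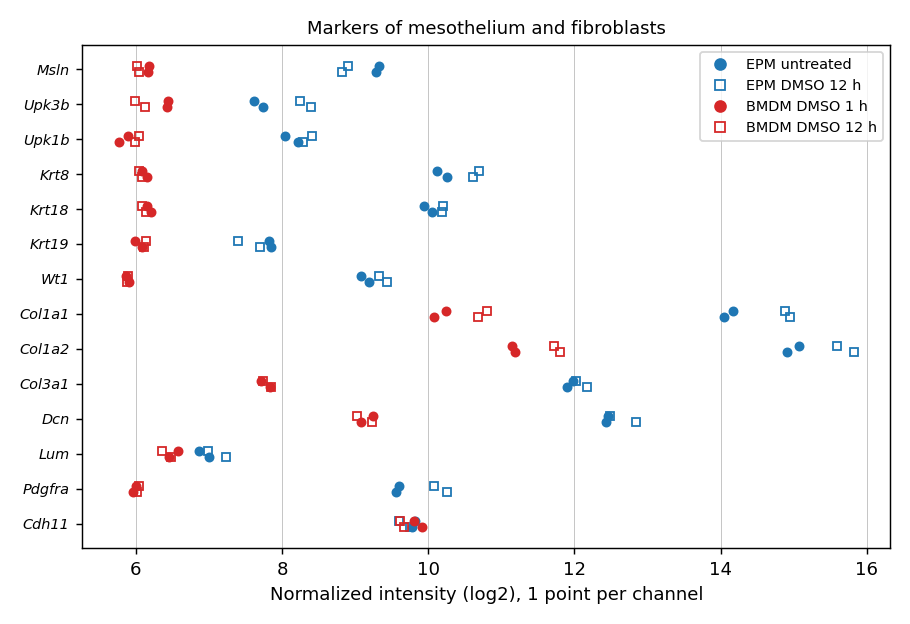
Normalized intensity (log2, x axis) of the 14 markers of mesothelium and fibroblasts (y axis) in each of the 8 control channels, with circles for early and open squares for 12 h controls. The blue EPM points lie to the right of the red BMDM points for every marker but Cdh11, and BMDM channels of Krt8 sit between 6.04 and 6.16 while those of Cdh11 sit between 9.61 and 9.91.

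Markers of granulocytic cells moved with BMDM. Of 19 markers of neutrophils and their granules, 15 were higher in BMDM at both times and 6 by over 2-fold, while Mmp8 and Mmp9 were higher in EPM. The count over 2-fold was 10 with a smaller offset in the background correction and 14 with the processed signal. Their summed intensity ranged from 3753 to 3994 in EPM and from 12078 to 17540 in BMDM. Most of the BMDM sum came from S100a9 alone, at means of 13.50 at 1 h and 13.01 at 12 h (log2). Mpo, the myeloperoxidase of primary granules, differed by -1.70 and -1.85, and Ltf, lactoferrin, by -2.47 and -2.27, while Ngp and Camp were not well above background in any EPM channel. Their part in the BMDM-higher genes was not tested.

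Genes known from macrophages of the peritoneal cavity were more often higher in EPM than in BMDM. Of 21 tested, 11 were higher in EPM at both times (against 23.3% of all genes), 10 of them by over 2-fold (against 5.08%). In BMDM 3 were higher (against 24.1%). The medians were 1.24 early and 0.57 at 12 h. Gata6, the transcription factor of resident cavity macrophages and also a gene of mesothelium, stood at 10.37, 10.53, 10.96 and 10.88 in EPM and between 6.21 and 6.28 in BMDM, differences of 4.22 and 4.67. Its other probes gave smaller differences, 1.17 and 1.43 on one and 0.12 and 0.05 on another. Cd9, a tetraspanin, differed by 3.29 and 3.04 (1.72 and 1.48 on a second probe) and Serpinb2, a protease inhibitor, by 2.57 and 2.42. Cxcl13, a B cell-attracting chemokine of the cavity, was not well above background in BMDM and was at least 13.3-fold higher in EPM early and at least 6.14-fold at 12 h. Timd4, the phosphatidylserine receptor of long-lived resident cells, was well above background in 2 EPM channels and 1 BMDM channel and passed the test at neither time (0.09 and -0.02). The members higher in BMDM were Saa3, an acute-phase protein (-2.20 and -2.08), Icam2, an adhesion ligand (-0.63 and -1.37), and Cd5l, a secreted scavenger protein (-0.50 and -1.33).

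Transcription factors of the lineage split. Of 38 tested, 16 were higher in EPM and 12 in BMDM at both times, with 5 and 2 over 2-fold. The processed signal gave 8 over 2-fold in EPM, and loess within arrays alone gave 4 in BMDM. After Gata6 the largest in EPM were Egr2 (3.92 and 4.43), an immediate early factor, and Bhlhb2 (2.60 and 3.88), a circadian and stress-responsive repressor also known as Bhlhe40. Pparg, the nuclear receptor that governs lipid handling, stood between 12.62 and 12.71 in the 4 EPM channels and between 10.53 and 10.89 in the 4 BMDM channels, differences of 1.74 and 2.15. By the smaller of the differences at both times, Ets2 (-2.99 and -3.15), Cebpd (-2.10 and -2.07) and Maf (-0.97 and -0.99) were the largest in BMDM. Other probes of Maf gave -1.86 and -1.79, -2.03 and -1.85, and -0.67 and -0.69. Sfpi1, which encodes PU.1, differed by -1.02 and -0.83, and Irf8 passed the test at neither time (-0.15 and -0.19). Id1, an inhibitor of helix-loop-helix factors, differed by -2.56 early and -0.55 at 12 h, with BMDM at 12.53 and 12.52 at 1 h and at 10.51 and 10.52 at 12 h.

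Among 17 genes of monocytes and their recruitment, 7 were higher in EPM and 8 in BMDM, against 23.3% and 24.1% of all genes. Ly6c, the antigen of inflammatory monocytes, differed by -4.27 and -4.52 (-1.61 and -0.97 on its second probe), Ccl9 by -2.05 and -2.68, and Ccr2, the receptor for monocyte egress from marrow, by -1.17 and -1.66 (-0.47 and -0.58 on its second probe). Cx3cr1, the fractalkine receptor, was lower in EPM by 2.21-fold early and 6.73-fold at 12 h. Itgax, Fn1 (4.60 and 4.32), which encodes fibronectin, and Thbs1 (1.69 and 1.52) were higher in EPM, and Fn1 and Thbs1 are also products of fibroblasts. Of 26 integrins and adhesion receptors, 9 were higher in EPM and 8 in BMDM, not far from the 23.3% and 24.1% of all genes. They were led by Itgax and Itgb7 (4.65 and 4.22) in EPM and by Itgal (-3.55 and -2.47), the LFA-1 alpha chain, in BMDM.

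Of 13 genes of MHC class II presentation, 6 were higher in EPM at both times, 5 of them by over 2-fold, and 2 were higher in BMDM, with medians of 0.33 early and 0.12 at 12 h. H2-Ab1, an MHC class II beta chain, stood at 13.23 and 13.25 in untreated EPM and 12.36 and 12.42 in EPM at 12 h, against 8.05, 8.11, 7.98 and 7.87 in BMDM. The difference was 5.16 ± 0.08 (SE, n = 2 per group) early and 4.46 ± 0.08 at 12 h, and it was smaller at 12 h (adjusted p of the change = 0.000283). H2-Aa was not well above background in any BMDM channel and was at least 20.3-fold and at least 11-fold higher in EPM, and Cd74, the invariant chain, differed by 4.31 and 3.68. The members higher in BMDM were the costimulatory Cd80 (-0.41 and -0.64) and Cd86 (-0.56 and -0.20, but -1.44 and -1.05 on its second probe). On the probe used, the call of Cd86 was lost without the Cy3 channel of EPM at 12 h or without either channel of BMDM at 12 h, with a mean difference of -0.33 to -0.39 there. B cells and dendritic cells also carry class II. Of the B cell markers, Cd79a lay at a mean of 6.38 in EPM and 6.57 in BMDM, near background, and Pax5, Cr2, Ebf1 and Blk did not pass the filter on dim probes, whereas Cd22 was higher in EPM (2.19 and 2.54) and Cd79b in BMDM (-4.26 and -4.60). The summed intensity of the 6 tested ranged from 64457 to 67867 in EPM and from 26762 to 29318 in BMDM, most of it from Blnk, an adaptor protein (means of 15.95 and 14.56). The 5 dendritic cell markers tested summed to 598 to 671 in EPM and 549 to 579 in BMDM. Their part in the class II difference was not tested.

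Of 18 genes of alternative activation, 9 were higher in EPM and 4 in BMDM. Arg1, arginase 1, stood at 10.23 and 10.27 in untreated EPM and 8.93 and 8.73 in EPM at 12 h and was not well above background in BMDM, so that it was at least 17.2-fold higher in EPM early and at least 6.63-fold at 12 h. Retnla was at least 7.82-fold and at least 5.04-fold higher, and Clec7a, the beta-glucan receptor dectin-1, differed by 3.40 and 3.07. Folr2 (-1.34 and -2.23), Stab1 (-1.16 and -2.16) and Il4ra (-1.15 and -1.09) were higher in BMDM. Complement and opsonin genes split into 9 higher in EPM and 8 in BMDM of 19, against 23.3% and 24.1% of all genes. Vsig4, a receptor for C3 fragments (3.11 and 2.32), and Fcna, a ficolin (2.68 and 2.11), were among those higher in EPM. Marco, Gas6, a ligand for apoptotic cell receptors (-1.80 and -2.39), and Cfp, properdin (-1.25 and -2.03), led in BMDM, and the 3 chains of C1q were higher there too, by -0.55 to -1.15.

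Cell cycle genes were higher in BMDM almost without exception. Of 44 DNA replication genes 42 were higher in BMDM at both times and 25 by over 2-fold, with medians of -1.09 early and -1.35 at 12 h, and none was higher in EPM. Of 46 mitotic genes 44 were higher in BMDM and 30 by over 2-fold, with medians of -1.26 and -1.40. All 4 BMDM channels lay above all 4 EPM channels in 41 and 40 of them. Mki67, which encodes the proliferation antigen Ki-67, stood at 10.59, 10.74, 11.06 and 10.98 in EPM and at 12.06, 12.14, 12.71 and 12.84 in BMDM, differences of -1.44 ± 0.08 (SE, n = 2 per group) and -1.75 ± 0.08. Among the largest differences of replication genes were those of Ccne1, cyclin E1 (-2.24 and -2.43), and Rrm2, a subunit of ribonucleotide reductase (-2.03 and -2.20). Among mitotic genes they were those of Nusap1, a spindle protein (-2.20 and -2.17), Cdca5, sororin (-2.14 and -2.48), and Top2a, topoisomerase II alpha (-1.79 and -1.87). A second probe of Nusap1 gave -0.20 and -0.45 and one of Top2a -0.86 and -0.80. Lig1 and Rfc2 among replication genes, and Cdc20 and Cenpa among mitotic genes, did not pass the test at both times.

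Genes listed as cycle inhibitors and quiescence genes, a list that also holds the D-type cyclins, did not follow a single direction. Ccnd1, the D-type cyclin induced by growth factors, stood at 9.21, 9.26, 9.62 and 9.53 in EPM and at 13.31, 13.14, 13.04 and 13.04 in BMDM, 15.9-fold higher in BMDM early and 11.1-fold at 12 h. Ccnd2 and Ccnd3 were higher in BMDM as well (-2.79 and -1.76, and -2.02 and -1.82). The inhibitor Cdkn1a, p21, was higher in BMDM (-2.16 and -2.93), as was Ccng1 (-2.08 and -2.26), both targets of p53, whereas Cdkn1c was 24.8-fold and 34.6-fold higher in EPM. Gadd45b (1.91 and 1.87) and Gadd45g (1.65 and 2.36), growth arrest and stress genes, were higher in EPM. In all, 8 of the 23 genes of this list were higher in EPM and 11 in BMDM, against 23.3% and 24.1% of all genes. The D-type cyclins, which promote division, are among the 11.

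Interferon-stimulated genes were higher in BMDM. Of 52 tested, 44 were higher in BMDM at both times and 26 by over 2-fold, with medians of -1.03 early and -1.41 at 12 h. Ifit3, an inhibitor of viral translation, stood at 9.58 and 9.27 in untreated EPM, 7.50 and 7.54 in EPM at 12 h, 12.52 and 12.27 in BMDM at 1 h, and 12.02 and 11.78 in BMDM at 12 h. The difference grew from 7.84-fold to 20.8-fold (adjusted p of the change = 2.13e-06). A second probe of Ifit3 gave -2.36 and -2.60, so the growth was smaller there. Ifi44 was well above background in 1 of the 4 EPM channels, differed by -3.15 early and was at least 9.69-fold higher in BMDM at 12 h (-0.44 and -0.71 on a second probe). Ifit2 differed by -2.29 and -2.61 (-1.15 and -1.03 on a second probe). Isg15, a ubiquitin-like modifier whose probe the files place on another chromosome than the gene, stood at 9.61, 9.64, 8.36 and 8.72 in EPM and at means of 11.60 and 11.09 in BMDM at 1 h and 12 h, and Mx1, a dynamin-like antiviral protein, differed by -1.64 and -2.46. For 22 of the 52 genes the difference itself changed between the early and the 12 h controls, as it did for 17.5% of all genes tested. Cxcl10, a chemokine, differed by 0.25 early, without passing the test, and by -1.48 at 12 h.

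Against this direction, 2 genes of the list were higher in EPM at both times, among them Ifi205, of a family of nucleic acid sensors (0.75 and 0.54). Of 21 interferon-inducible GTPases and MHC class I genes, 14 were higher in BMDM and none in EPM, led by Iigp1 (-2.98 and -3.51), Tgtp (-2.63 and -2.91, but -0.24 and -0.30 on its second probe) and Ifi47 (-2.02 and -2.47). Receptors, kinases and sensors of the pathway differed less. Of 22, 9 were higher in BMDM and 4 in EPM, and only Tlr7, a sensor of single-stranded RNA (-1.24 and -1.13), passed 2-fold at both times. Irf1 differed by -0.40 and -0.91, Irf2 by 0.52 and 0.47, and Ifnar1, a chain of the type I interferon receptor, passed the test early (0.39) but not at 12 h (0.04).

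**Figure D3:**
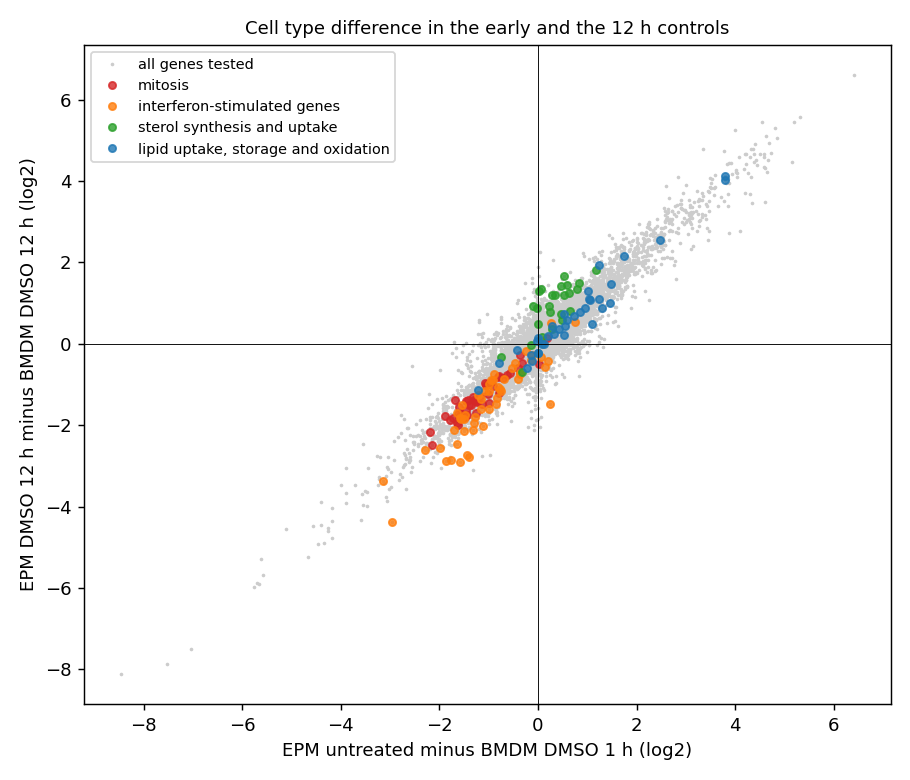
Difference between EPM and BMDM (log2) in the early controls (x axis) and in the 12 h controls (y axis), 1 point per gene tested, with 4 lists in colour. Mitotic genes and interferon-stimulated genes lie to the lower left, with medians of -1.26 and -1.03 early, and most sterol synthesis genes lie higher on the y than on the x axis, with medians of 0.29 early and 0.93 at 12 h.

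Promoters of the genes in these lists were searched in RefSeq sequence of GRCm38.p6, from 250 bases before to 50 bases after each start, for letters typical of the factors that drive them. The core of the interferon-stimulated response element, GAAANNGAA on either strand, was in the window of 22 of 37 interferon-stimulated genes with a promoter there (59.5%) and in 8.84% of all tested genes with a promoter. The E2F letters TTTCCCGC were in 6 of 35 replication genes (17.1% against 2.06%), the letters CCAAT in 30 of 39 mitotic genes (76.9% against 42.5%), and the sterol regulatory element letters TCACNCCAC in 1 of 17 sterol genes (5.88% against 1.43%). A match describes the letters and not a bound site. The following stretches of 100 bases upstream of the start show, 5′ to 3′ on the gene's strand, the matches in capitals for the interferon-stimulated genes with the largest differences that hold one upstream of the start, namely Ifit3 (chr19:34583382-34583481, plus strand), Isg15 (chr4:156200830-156200929, minus), Ifit1 (chr19:34640760-34640859, plus) and Bst2 (chr8:71537542-71537641, minus). Matches may overlap one another.
Ifit3: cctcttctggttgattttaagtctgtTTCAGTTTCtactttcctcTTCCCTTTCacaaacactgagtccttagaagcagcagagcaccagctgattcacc
Isg15: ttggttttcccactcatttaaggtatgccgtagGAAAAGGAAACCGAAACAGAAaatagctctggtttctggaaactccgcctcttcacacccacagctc
Ifit1: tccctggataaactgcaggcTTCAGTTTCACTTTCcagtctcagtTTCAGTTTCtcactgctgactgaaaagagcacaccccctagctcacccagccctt
Bst2: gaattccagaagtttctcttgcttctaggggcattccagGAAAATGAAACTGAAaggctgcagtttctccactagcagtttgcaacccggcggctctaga

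The same was done for cell cycle genes with large differences that hold a match upstream of the start. Cdc6 (chr11:98907967-98908066, plus), a loading factor of the replicative helicase, and Mcm7 (chr5:138171995-138172094, minus), a subunit of that helicase, show the E2F letters. Top2a (chr11:99024195-99024294, minus) and Cdc2a (chr10:69352913-69353012, minus), which encodes the mitotic kinase Cdk1, show the letters CCAAT, which occur 3 and 2 times.
Cdc6: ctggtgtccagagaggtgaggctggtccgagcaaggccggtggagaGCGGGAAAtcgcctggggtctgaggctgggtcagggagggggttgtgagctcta
Mcm7: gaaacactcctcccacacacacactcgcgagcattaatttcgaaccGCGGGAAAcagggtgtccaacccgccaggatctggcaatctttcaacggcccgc
Top2a: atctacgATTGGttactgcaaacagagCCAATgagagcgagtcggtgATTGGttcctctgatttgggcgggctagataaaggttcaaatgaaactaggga
Cdc2a: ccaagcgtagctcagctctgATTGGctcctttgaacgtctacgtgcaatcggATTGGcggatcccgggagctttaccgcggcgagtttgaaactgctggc
In the arrays Ifit1 differed by -1.87 and -2.88, Bst2, tetherin, by -1.70 and -2.12, Cdc6 by -1.51 and -1.77, Mcm7 by -1.48 and -1.70, and Cdc2a by -1.73 and -1.83.

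Lipid uptake, storage and oxidation genes were mostly higher in EPM. Of 36 tested, 23 were higher in EPM at both times, 11 by over 2-fold, and 4 were higher in BMDM, with medians of 0.55 early and 0.47 at 12 h. Fabp4, a fatty acid-binding protein of adipocytes and macrophages, stood between 15.85 and 16.07 in EPM and at 12.15, 12.11, 11.98 and 11.95 in BMDM, 13.9-fold higher in EPM early and 16.1-fold at 12 h. Mgll, monoacylglycerol lipase, was 14-fold and 17.5-fold higher, and Fabp5 5.57-fold and 5.9-fold. Cd36, a receptor for oxidized lipoprotein and fatty acids, differed by 1.03 and 1.10, Soat1, which esterifies cholesterol for storage, by 1.49 and 1.47, and Pnpla2, the triglyceride lipase, by 1.25 and 1.11. Scarb1, the receptor for HDL, was higher in BMDM (-1.22 and -1.15), as were Vldlr (-0.80 and -0.46) and Lipe (-0.23 and -0.60), the last losing its call without the Cy3 channel of untreated EPM (mean difference of -0.40). Fabp4, Cd36 and Mgll are also genes of adipocytes and endothelium, whose markers were not listed.

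Sterol synthesis genes were higher in EPM by less, and by more at 12 h than early. Of 25 tested 16 were higher in EPM at both times, against 23.3% of all genes, and 1, Tm7sf2, in BMDM. Only Sc5d was over 2-fold higher in EPM at both times, 1 of 25 against 5.08% of all genes (0 to 5 under the alternatives). The medians were 0.29 early and 0.93 at 12 h, and the difference changed with time in 18, against 17.5% of all genes. Sc5d, a late enzyme of the pathway, differed by 1.19 and 1.82 (0.09 and 0.87 on its second probe) and Dhcr7 by 0.79 and 1.34 (0.23 and 0.72 on a second probe). Mvd, mevalonate decarboxylase, stood at 10.30 and 10.29 in untreated EPM, 10.80 and 10.95 in EPM at 12 h, 9.46 and 9.47 in BMDM at 1 h, and 9.34 and 9.45 in BMDM at 12 h. The groups did not overlap at either time, and the difference widened from 0.83 to 1.48 (adjusted p of the change = 0.00138). Cyp51, a lanosterol demethylase, differed by 0.06 early, without passing the test, and by 1.34 at 12 h.

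Cholesterol efflux genes, targets of the liver X receptors, showed no common direction. Of 18 tested, 3 were higher in EPM and 6 in BMDM, with medians of -0.14 and -0.02. Abca1, the exporter of cholesterol to apolipoprotein, differed by -0.70 and -0.84 with EPM channels between 10.48 and 11.45 and BMDM channels between 11.35 and 12.17, ranges that overlap, whereas Abcg1, which exports to HDL, differed by 0.88 and 1.22. Apoc2 (-1.43 and -1.56) and Mylip (-1.21 and -1.57) were higher in BMDM. Of 24 genes of fatty acid synthesis and desaturation, 10 were higher in EPM and 4 in BMDM, led by Scd1 (1.62 and 1.78), which was well above background in only 1 BMDM channel. Scd2, another desaturase, was higher in BMDM early (-0.74) and in EPM at 12 h (0.51). Of 14 eicosanoid enzymes, 6 were higher in EPM and 4 in BMDM. Ptgis, prostacyclin synthase, was at least 15.2-fold and at least 18.1-fold higher in EPM, Ptgs1, cyclooxygenase 1, 4.5-fold and 3.64-fold, and Pla2g4a, the cytosolic phospholipase, differed by -1.11 and -0.94.

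**Figure D4:**
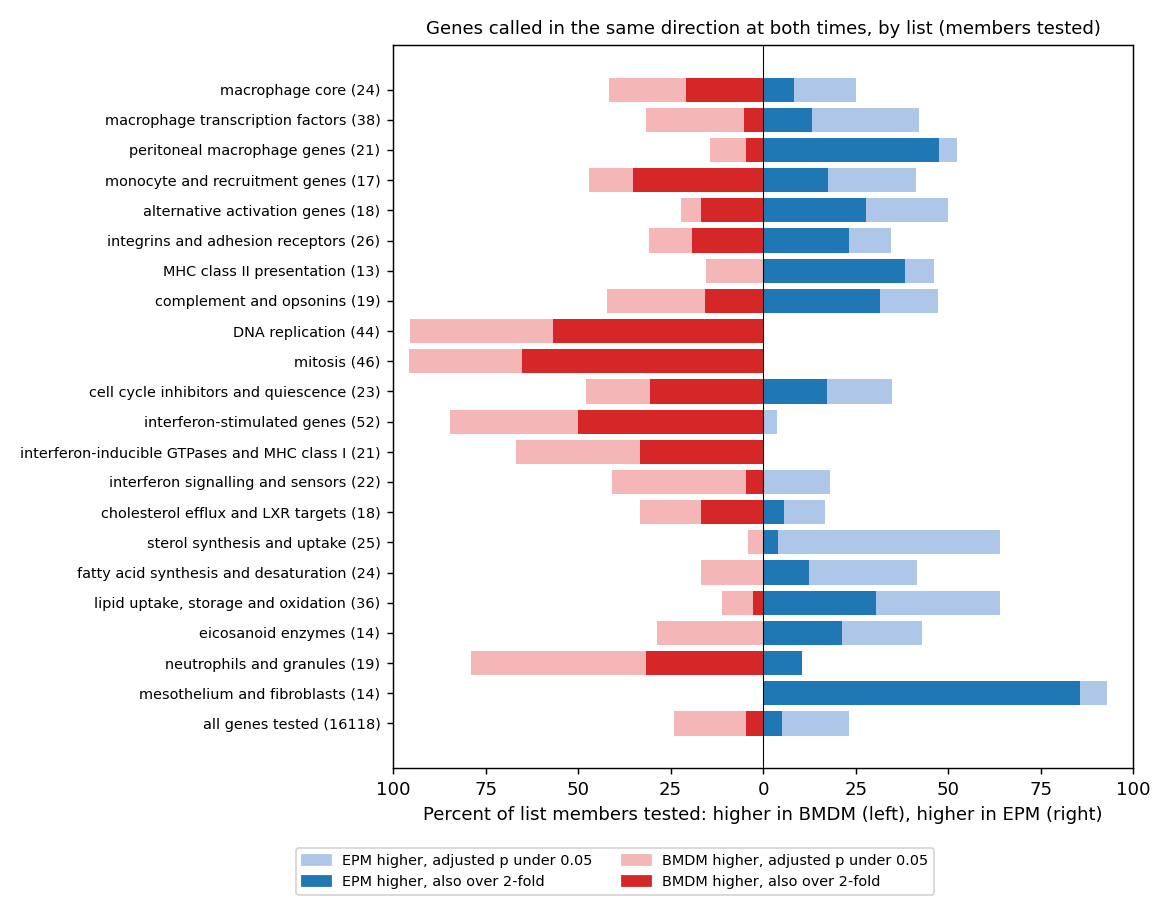
Percent of the members tested in each list (y axis, number tested in brackets) that were higher in BMDM (left) or in EPM (right) at both times, in pale for an adjusted p under 0.05 and in full colour for a difference over 2-fold as well. The lowest bar gives all 16118 genes, with 4.62% and 5.08% in full colour, against 30 of 46 mitotic genes in BMDM and 12 of 14 mesothelial and fibroblast genes in EPM.

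The same cell types were also measured after KLA, in channels on the same slides that formed no side of the comparisons above, though they entered the normalization and the estimate of the spread. Of the 818 genes over 2-fold higher in EPM, 813 (99.4%) were higher in EPM after 1 h of KLA and 772 (94.4%) after 12 h, against 27.7% and 32.2% of all genes. Of the 744 over 2-fold higher in BMDM, 732 (98.4%) were higher in BMDM after 1 h and 566 (76.1%) after 12 h, against 33.2% and 34.9%, and 92 (12.4%) were then higher in EPM. F7 (6.08 at 1 h and 6.17 at 12 h) and Slc13a3 (-7.96 and -7.05) kept their differences, whereas Fpr1 went from -6.32 at 1 h to -2.30 at 12 h and Tlr2 from -1.12 to 1.86. Mitotic genes were higher in BMDM in 42 of 46 after 1 h (median -0.97) and higher in EPM in 40 of 46 after 12 h (median 0.61). DNA replication genes had a median of -1 after 1 h and 0.10 after 12 h. Interferon-stimulated genes had medians of -0.99 and -0.22, and Ifit3 differed by -2.99 and, no longer passing the test, by -0.20. Sterol synthesis genes kept a median of 0.33 and 0.85, and the mesothelial and fibroblast markers one of 3.22 and 2.38.

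**Figure D5:**
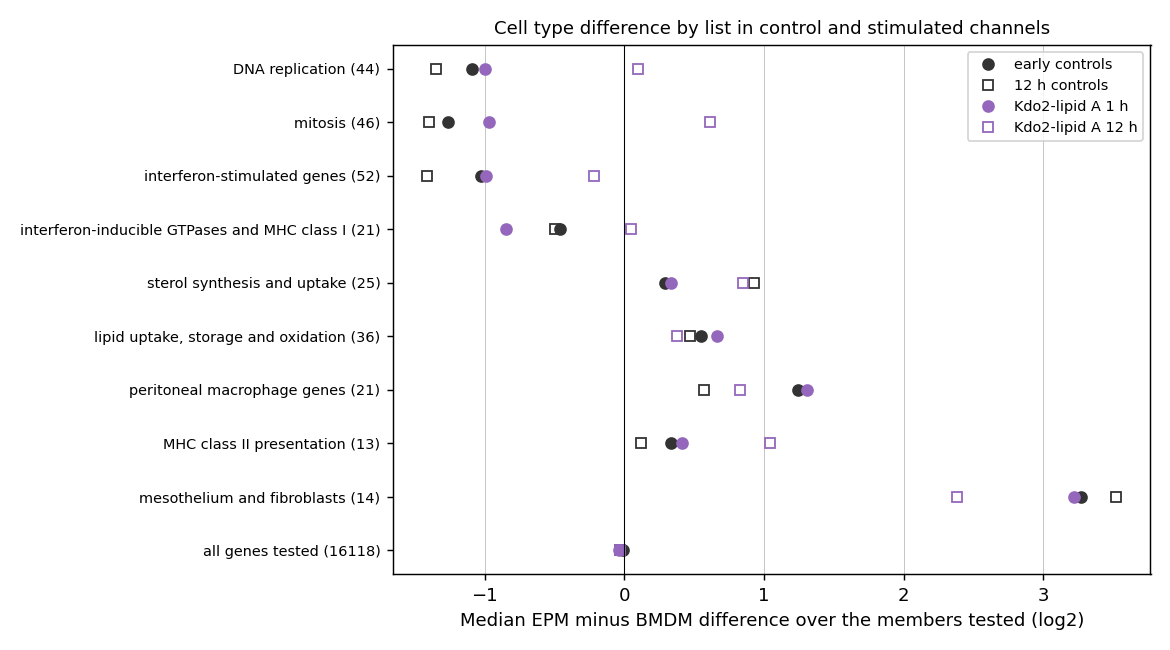
Median difference between EPM and BMDM (log2, x axis) over the tested members of each list (y axis, number tested in brackets), in the early and 12 h controls (black circles and squares) and after KLA for 1 h and 12 h (purple). The cell cycle lists lie near -1 in the controls and after 1 h, and at 0.10 and 0.61 after 12 h of KLA, while all genes together stay near 0.

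A difference between EPM and BMDM that changed between the early and the 12 h controls was called for 2816 genes (17.5%), and for 4487 genes with dye as the replicate block. It was called for 285 of the 818 and 206 of the 744 genes over 2-fold, which had been chosen for the same direction at both times. Since the early controls differed in solvent as well as in time, these cannot be told apart.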

How the data were processed

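RNA was hybridised to 12 2-colour Agilent arrays of the mouse genome, and the intensity values of each spot deposited by the authors came from Agilent Feature Extraction (9.5.3.1 in the submitters' processing notes), next to a table of normalized intensity for the same channels. Spot means were background-corrected (normexp, offset 50), normalized by loess within and Aquantile between arrays, and split into single log2 channels (limma 3.58.1 in R 4.3.3). Of 41174 probes, 34850 carry a gene symbol. The probe with the highest mean represented each of 21597 symbols. A limma model with 1 coefficient per condition over all 24 channels gave 12 residual degrees of freedom, all SEs and all adjusted p-values. Genes named first are the 10 per direction with the largest smaller difference over both times and no overlap between cell types, then 3 per list and direction. Members and lists were chosen with earlier results of these data known, and other members named as examples were chosen after their values were seen. Where no channel of a group was well above background, folds are bounds against the lowest detected signal (5.55 to 6.09, log2). The same dye deviated alike between arrays (Cy5 minus Cy3 correlated by 0.42 to 0.56 in all 6 pairs of control arrays). Over the 66 pairs of all 12 arrays, those of B cells included, the correlation was 0.27 to 0.65. Whether paired samples or a dye effect gave it was not tested, and the main model held no dye term. Tested on simulated channels of 16118 genes, all 50 changed by 1 log2 unit and 45 of 50 changed by 0.5 were called at both times. The simulated noise was independent between channels, without array, slide or dye effects. It therefore cannot show how a shared array or slide affects the calls. Values of a few list members are not reported here, though the counts and medians include them.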

Additional observations from a re-analysis of the deposited data

Results flagged for a closer look

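For 208 genes the difference between EPM and BMDM was called in opposite directions in the early and the 12 h controls, with the test of the change called in each. Cbr2, a carbonyl reductase, had the largest change from EPM to BMDM, 1.63 on the log2 scale, as EPM channels fell from 12.88 and 12.93 to 11.10 and 11.37 while BMDM channels lay between 11.91 and 12.17. Gdf15, a stress-induced cytokine, changed by 1.35, with BMDM at 11.92 and 12.01 early and 12.89 in both channels at 12 h. Gabra4 changed by 1.34, and its BMDM channels were well above background at 12 h alone. In the other direction Nab2, a corepressor of Egr factors, changed by -1.78, as BMDM stood at 10.73 and 10.76 early and 8.75 and 8.86 at 12 h. Emid1 changed by -1.75, with EPM at 6.25 and 6.40 early and 8.11 and 7.90 at 12 h. Olfr389 changed by -1.78 with 2 of 4 channels of each cell type well above background. Solvent differed between cell types in the early controls only, and its part in these changes was not tested.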

How the results depend on the processing

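The 115 named genes followed here are genes named by rule, without the further examples. Those called in opposite directions at the 2 times had no shared call to lose. Counts over all genes stayed within 1.5 times their reported value under the alternatives run (24 for genes with the same direction at both times, without the fits by array for the early, 12 h and change counts), and at most 3 of these 115 genes lost their call under any of them, with these exceptions. With the Feature Extraction processed signal, 1448 genes were over 2-fold higher in EPM and 1275 in BMDM. At an adjusted p under 0.01 the difference changed with time in 1613 genes. Requiring over 2-fold left 1819 genes early, 2043 at 12 h, 818 and 744 at both times and 172 for the change with time, with 25 named genes below that fold. With dye as a replicate block the change with time was called for 4487 genes, and the block moved no other count by over 1.5 times and ended no call of a named gene. Leaving out each channel in turn gave 3455 to 3543 genes higher in EPM and 3522 to 3596 in BMDM at both times, and 813 to 827 and 733 to 744 over 2-fold. Leaving out each channel gave 8643 to 9949 genes early, 8660 to 9776 at 12 h and 2018 to 2425 for the change with time. The fits by array pooled both times into 1 test, so they count differences averaged over the times and not calls at each time. With array means as samples (2 arrays against 2), 2814 genes were higher in EPM and 2672 in BMDM, and 5 named genes lost their call (Thbs1, Cd86, Irf4, Vldlr and Lipe). Of the genes over 2-fold with a second probe above background in at least 4 channels, that probe had the same direction at both times in 92.9% for EPM and 97.1% for BMDM, and in 75.3% and 84.1% of all genes called at both times. Several list counts moved by over 1.5 times, chiefly small ones, and a filter on all 8 control channels left 5 of the mesothelial and fibroblast markers and 6 of the peritoneal genes higher in EPM, as it drops genes that are dim in BMDM. Low signals compress differences, and slide was not separable from cell type under any alternative.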

Other observations

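Markers of further cell types were low or split. Of 11 markers of T and NK cells tested, 2 were higher in EPM at both times and 1 in BMDM, and Thy1, also a gene of fibroblasts, was at least 3.27-fold and at least 6.6-fold higher in EPM, as it was not well above background in BMDM. Of 5 eosinophil markers 2 were higher in EPM and 2 in BMDM, with Siglecf at 1.20 and 2.08 and Ccr3 at -2.72 and -2.98. Of 8 mast cell and basophil markers 3 were higher in EPM and 1 in BMDM, of 5 dendritic cell markers 1 was higher in EPM, of 4 erythroid markers none passed the test at both times, and of 4 platelet markers 1, Cxcl7, was higher in BMDM (-2.14 and -1.48). Of 9 progenitor genes 5 were higher in EPM and 2 in BMDM, with Cd34, also a gene of endothelium and fibroblasts, at 1.40 and 0.50. Among 6 B cell genes Cd79b, a chain of the B cell receptor, was higher in BMDM by -4.26 and -4.60 while Cd79a lay at means of 6.38 in EPM and 6.57 in BMDM, and Cd22 was higher in EPM by 2.19 and 2.54.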
